A study of Mus musculus with 4 samples.

Results

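Myotilin, its close relatives and the proteins it meets at the Z-disc were followed in hearts with and without Jun in striated muscle. The 9 genes are the myotilin family (Myot, Palld and Mypn), the myozenins (Myoz1, Myoz2 and Myoz3) and partners of these proteins (Tcap, Flnc and Csrp3). They were chosen by gene symbol and are represented by 16 of the 45037 probe sets tested, or 9 of the 18193 genes that the array annotation names. RNA came from hearts of mice at 10 weeks of age, 2 Jun f/f and 2 Jun delta mu, with 1 array per heart. Jun f/f mice carry floxed Jun and no Cre. Jun delta mu mice carry the same floxed alleles and Cre recombinase under the creatine kinase promoter, which deletes Jun in striated muscle and leaves it in the other cells of the heart. The background of both was mixed 129/Ola-C57BL/6, and neither had surgery. Since only the Jun delta mu mice carried Cre, an effect of Cre itself and the loss of Jun cannot be told apart.

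The Z-disc is the border of the sarcomere, where actin filaments of neighbouring sarcomeres are crosslinked by alpha-actinin and where titin is anchored. Myotilin, palladin and myopalladin are related proteins with immunoglobulin domains that bind alpha-actinin and actin. Myozenins, also named calsarcins or FATZ proteins, tie alpha-actinin, filamin C, telethonin and the phosphatase calcineurin together at the Z-disc, and myotilin binds filamin C as well. Myoz2 is the myozenin of heart and slow muscle, whereas Myoz1 and Myoz3 belong mainly to skeletal muscle. In humans, mutations in several of these genes cause myofibrillar myopathy or cardiomyopathy.

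The promoters are shown first, since Jun encodes a subunit of the transcription factor AP-1 and the levels that follow can be read beside them. RefSeq windows on GRCm38.p6 of 250 bases before to 50 bases after an annotated start were matched for 5 of the 9 genes, as 3 windows for Palld, 2 each for Flnc and Csrp3 and 1 each for Mypn and Myoz2. Myot, Myoz1, Myoz3 and Tcap were not matched. The AP-1 motif TGANTCA, which reads the same on both strands, was found in 2 of these 9 windows, against 7.81% of all 32851 windows. For Palld the match lies in 1 of the 3 windows and begins 54 bases before an annotated start inside the gene. Which of its starts is used in these hearts was not measured. In capitals in the next line is this match of Palld, within the 250 bases at chr8:61591140-61591389 on the minus strand.
Palld: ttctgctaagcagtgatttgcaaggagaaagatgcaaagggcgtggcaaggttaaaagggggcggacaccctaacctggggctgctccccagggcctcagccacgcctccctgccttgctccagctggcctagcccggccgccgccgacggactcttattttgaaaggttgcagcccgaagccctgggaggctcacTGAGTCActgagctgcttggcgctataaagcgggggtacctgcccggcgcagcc
For Myoz2 the match lies after the start, and a stretch of 30 bases around it at chr3:123034940-123034969 on the minus strand is given with the motif in capitals.
Myoz2 after the start: cagtcccctgttTGAGTCAgatcgagggac
The same Myoz2 window held a match to the MEF2 motif, the binding site of a factor of muscle genes, beginning 33 bases before the start. This motif was found in 3.19% of all windows and in 1 of the 9, and it is in capitals in the 250 bases before the start at chr3:123034988-123035237 on the minus strand.
Myoz2 before the start: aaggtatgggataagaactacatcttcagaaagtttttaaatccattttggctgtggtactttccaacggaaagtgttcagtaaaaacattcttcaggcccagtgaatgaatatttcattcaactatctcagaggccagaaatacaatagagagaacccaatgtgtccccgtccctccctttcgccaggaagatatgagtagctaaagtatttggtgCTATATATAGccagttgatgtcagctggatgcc
The related motif TGACGTCA, found in 1.79% of all windows, was in none of the 9. The M-CAT motif CATTCC, searched on both strands, was in 4 of the 9 (1 of Palld, 1 of Mypn and both of Flnc, which overlap and share 1 site) against 14.7% of all windows. These are matches of letters, and binding of AP-1 or any other factor was not measured in these hearts.

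Jun itself was lower in the Jun delta mu hearts, by -1.57 and -1.24 on the log2 scale at its probe sets, so the labels and the targeted gene fit each other. Levels are given as log2 of the RMA signal, in which 1 unit is a 2-fold change, and a probe set is a group of short probes for 1 transcript. Jun f/f replicate 1 stood apart. On it, 104 probe sets deviated over 2-fold from the average of the remaining hearts, where each of those had 24 to 33. On Jun delta mu replicate 2 the atrial genes Sln (8.11), Myl7 (9.11) and Myl4 (9.02) were high, where the remaining arrays read 3.81 to 6.03. The other atrial markers listed did not share a rise of this size. Nppa read 12.79 on that array against 11.88 to 12.40, and Bmp10 6.64 against 6.50 to 6.53. Pam read 5.68 on both Jun delta mu arrays, and Gja5 was lowest on replicate 2, below the 4.08 to 4.12 of the remaining arrays. The markers of cardiac muscle were present on all arrays, and 0 of 10 passed the threshold used here in either direction, with a median difference of -0.02. The deposited growth notes describe plated ventricular cells, whereas the titles and methods describe whole hearts, and this was not reconciled.

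In Jun delta mu hearts Myot fell to 36.9% of its Jun f/f signal, and it was the only member past the threshold used here, which asks for more than a 1.3-fold difference. Myoz1 lay lower as well, at 84.2% by its brighter probe set, which is short of that limit. The Myot paralogs Palld and Mypn, the myozenins and the partners Tcap, Flnc and Csrp3 lay between -0.25 and 0.19 by the brightest probe set of each gene. A probe set was counted as changed when the groups differed by more than 1.3-fold (0.379 on the log2 scale) at an unadjusted p under 0.05. The limits are those of the study, and the p is from limma here. Of the 16 member probe sets, 1 was lower and 0 were higher, where 0.959% of all probe sets were lower and 0.568% higher. In either direction together these limits called 1.53% of all probe sets. After adjustment over the whole array limma called 0 probe sets at p under 0.05, members included, while 2326 (5.16%) had an unadjusted p under 0.05, among them 2 of the 16 members. By the methods' t-test Myot was again the 1 member past the limits, where 0.246% of all probe sets were lower and 0.198% higher, and 0 were called once adjusted by Benjamini-Hochberg. In whole hearts, fewer cells of a type and less RNA per cell cannot be told apart.

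**Figure D1:**
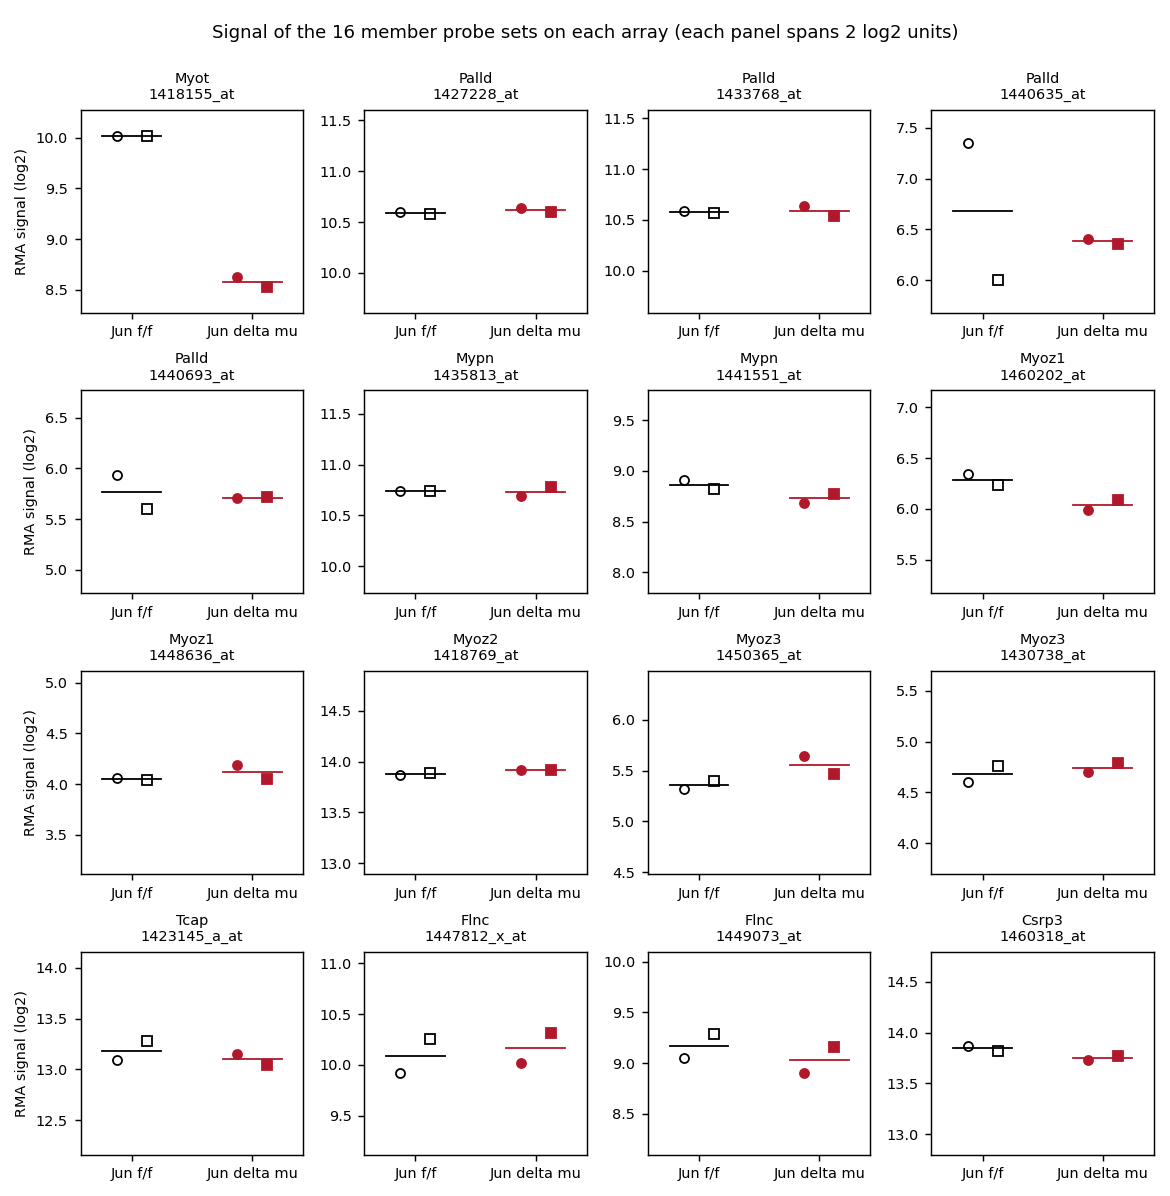
RMA signal (log2) of each of the 16 member probe sets on the 4 arrays, with Jun f/f as open and Jun delta mu as filled symbols. Circles are replicate 1 and squares replicate 2, and horizontal lines give the mean of each genotype. Each panel spans 2 log2 units, and only Myot shows a step of the groups, from 10.02 to 8.58, while 1 dimmer probe set of Palld is high on Jun f/f replicate 1 alone at 7.35.

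Myot lies on chromosome 18 of GRCm38.p6 from 44334053 to 44355740 and has 1 probe set. Its log2 signal was 10.02 on both Jun f/f arrays and 8.63 and 8.53 on Jun delta mu replicates 1 and 2. Both Jun delta mu hearts lay far below both Jun f/f hearts, and replicates of 1 genotype differed by at most 0.10. The means were 10.02 ± 0.00 and 8.58 ± 0.07 (SD, n = 2), a difference of -1.44 (standard error 0.09, 95% interval -1.66 to -1.21), or 2.71-fold. This was the smallest p of all probe sets and the fifth largest fall, and it still had an adjusted p = 0.237 over all probe sets in limma. With 2 arrays per genotype an exact permutation test cannot go below p = 0.333. Myot had been named as lower by earlier work on these same arrays and the other members were gathered around it, so its fall is the starting point here and not independent evidence. The study also reported lower myotilin mRNA in unstimulated Jun delta mu hearts by quantitative RT-PCR, a measurement that these arrays do not hold.

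Palladin, which organizes actin bundles in many cell types besides muscle, did not follow Myot. Palld lies on chromosome 8 from 61511431 to 61902707 and has 4 probe sets. The brightest read 10.60 and 10.57 in Jun f/f and 10.64 and 10.60 in Jun delta mu hearts, a difference of 0.03 (95% interval -0.18 to 0.25). A second bright probe set read 10.59 and 10.57 against 10.63 and 10.54, a difference of 0.01 (95% interval -0.22 to 0.23). These probe sets lay close together on all 4 arrays. The third probe set, a dimmer one, was unstable instead, with 7.35 and 6.00 on the Jun f/f arrays and 6.41 and 6.36 on the Jun delta mu arrays. Its difference of -0.29 (95% interval -1.34 to 0.75) was set by Jun f/f replicate 1, the array that stood apart. It was higher past the threshold without that array, at 0.38, and lower past it without Jun f/f replicate 2, at -0.97. The fourth probe set was also highest on Jun f/f replicate 1, at 5.94 against 5.60 to 5.71 on the other arrays, and differed by -0.06.

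Myopalladin, which joins alpha-actinin, nebulin-type proteins and the ankyrin repeat protein Ankrd1 at the Z-disc, was nearly level. Mypn lies on chromosome 10 from 63115795 to 63203952. Its brighter probe set read 10.74 on both Jun f/f arrays and 10.69 and 10.78 on the Jun delta mu arrays, which lie on either side of them. The difference was -0.01 (95% interval -0.23 to 0.22), so that the interval leaves room for a fall to 85.2% of the Jun f/f signal but not to that of Myot. The dimmer probe set read 8.91 and 8.82 against 8.68 and 8.78 and differed by -0.13 (95% interval -0.37 to 0.10), with the groups apart by less than the spread within either of them.

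Among the myozenins, the cardiac form Myoz2 was the steadiest. Myoz2 lies on chromosome 3 from 123006206 to 123035003 and read 13.87 and 13.89 in Jun f/f and 13.92 on both arrays of Jun delta mu hearts. Its difference was 0.04 (95% interval -0.18 to 0.25), or 102% of the Jun f/f signal. Myoz1, on chromosome 14 from 20649102 to 20656540, came closest to the direction of Myot. Its brighter probe set read 6.34 and 6.23 against 5.99 and 6.08, so that the groups did not overlap. The difference of -0.25 (95% interval -0.49 to -0.01, limma, unadjusted p = 0.0446, adjusted p = 0.896) was under 1.3-fold and did not pass the threshold. The other Myoz1 probe set read 4.06 and 4.04 against 4.19 and 4.05 and differed by 0.07. Myoz3, on chromosome 18 from 60573717 to 60591716, read 5.32 and 5.40 against 5.64 and 5.47, a difference of 0.19 (95% interval -0.06 to 0.45). Its second probe set, at 4.61 and 4.76 against 4.70 and 4.79, differed by 0.06. Array medians were 5.45 to 5.47, and the values carry no detection calls, so that for Myoz3 and the dimmer Myoz1 probe set it is not known whether a transcript was detected. The brighter Myoz1 probe set and the fourth Palld probe set lay not far above these medians, and detection is not settled for them either.

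The partners did not change past the threshold either. Telethonin, the titin cap that ties titin ends together at the Z-disc, is encoded by Tcap on chromosome 11 from 98383811 to 98384953. It read 13.09 and 13.28 in Jun f/f and 13.15 and 13.04 in Jun delta mu hearts, overlapping groups with a difference of -0.09 (95% interval -0.36 to 0.18). Muscle LIM protein, encoded by Csrp3 on chromosome 7 from 48830398 to 48848051, is a Z-disc protein linked to mechanical stress signalling. Csrp3 read 13.87 and 13.82 against 13.73 and 13.77, a difference of -0.10 (95% interval -0.32 to 0.12) without overlap of the groups.

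Filamin C, the muscle form of an actin crosslinker and a direct partner of myotilin, varied by replicate more than by genotype. Flnc lies on chromosome 6 from 29433153 to 29461889. One probe set, whose suffix marks probes that can match other transcripts, read 9.92 and 10.26 on Jun f/f replicates 1 and 2 and 10.02 and 10.31 on Jun delta mu replicates 1 and 2. The other read 9.05 and 9.29 against 8.91 and 9.16. The genotype differences were 0.08 (95% interval -0.32 to 0.48) and -0.14 (95% interval -0.48 to 0.20), of opposite sign. By contrast, replicate 2 was above replicate 1 by 0.24 to 0.34 in either genotype at either probe set. Both probe sets read the same 4 hearts. What the replicate numbers share is not stated in the labels, and across all probe sets the deviations of same-numbered arrays correlated at only 0.03.

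**Figure D2:**
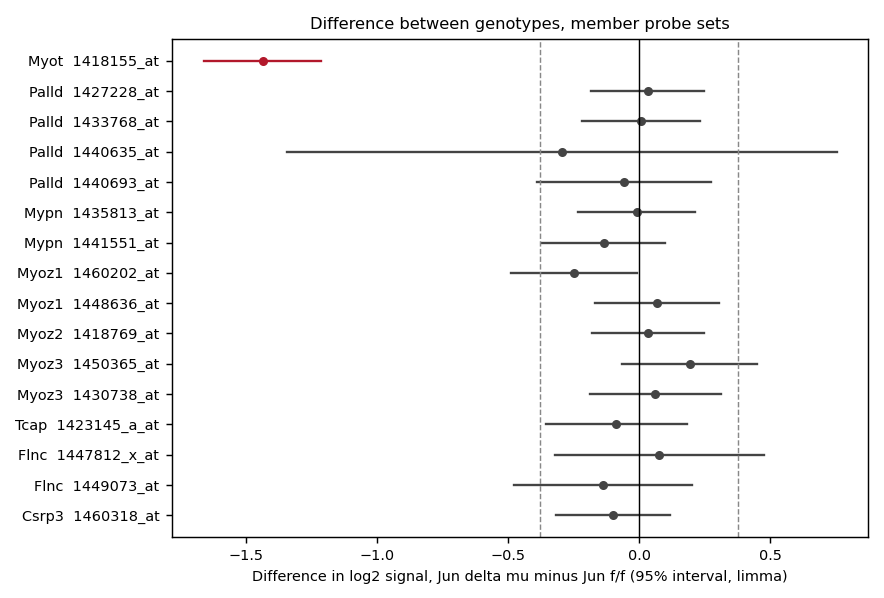
Difference in log2 signal (Jun delta mu minus Jun f/f, points) with 95% intervals from limma (lines) for the 16 member probe sets, with dashed lines at 1.3-fold in either direction and the probe set past the threshold in red. The interval of Myot ends at -1.21, and of the other intervals all but that of the brighter Myoz1 probe set include 0.

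The question whether other members shared the fall was tested on the difference itself. On each array the log2 signal of Myot was set against that of each other probe set, and the change of this ratio between genotypes was fitted. The ratio itself has no meaning as a level, since probe sets differ in brightness, and only its change is read. Myot lay at -0.58 and -0.56 relative to the brightest Palld probe set on the Jun f/f arrays and at -2.01 and -2.07 on the Jun delta mu arrays, so that the ratio changed by -1.47 (95% interval -1.74 to -1.21). Against Mypn the change was -1.43 (95% interval -1.71 to -1.15) and against Myoz2 -1.47 (95% interval -1.74 to -1.21). Against Tcap it was -1.35, against Csrp3 -1.34 and against Flnc -1.52. The smallest change by brightest probe set was that against Myoz1, at -1.19 (95% interval -1.47 to -0.90), a size that holds only if that probe set detected a transcript. Against Myoz3 and the dimmer Myoz1 probe set no size is read, since it is not known whether they detected a transcript. In limma all 15 other member probe sets had an unadjusted p under 0.05 for the change, and with the methods' t-test 14 did, all but the unstable probe set of Palld. These tests all rest on the same 4 values of Myot. The variance that limma borrows across rows also comes from rows that share those values, so the intervals and p of the ratios may look too precise. The same call was made against 99.9% of all probe sets on the array. The difference from its paralogs and partners is therefore no more than the difference of Myot from nearly every transcript. Without Myot, 8 of the other 15 probe sets were below 0 and their median was -0.01 where that of all probe sets was 0.00. These counts include the Myoz3 probe sets and the dimmer one of Myoz1, at which a fall might not be measurable. Non-overlap was common on these arrays. The groups did not overlap in 4 member probe sets on the lower side and 3 on the higher side, against 16.7% and 17.3% of all probe sets.

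Relatives of the partners outside the 9 genes gave values on both sides of 0. Csrp1, a relative of Csrp3 found in smooth muscle, passed the threshold at 1 of its probe sets. They read 8.17 and 8.19 against 7.82 and 7.85, a difference of -0.35 that stayed under 1.3-fold, and 7.49 and 7.55 against 7.12 and 7.14, a difference of -0.39 that passed the threshold (limma, adjusted p = 0.896). With Jun f/f replicate 2 left out, the second stood at -0.36 and did not pass. Csrp1 was picked by the study on these arrays, so its fall is not independent evidence. Csrp2, another relative, read 8.31 and 8.38 against 8.58 and 8.70, a difference of 0.29 that did not pass the fold limit. Flna, the widely expressed filamin, differed by -0.08 (95% interval -0.31 to 0.15). Smooth muscle markers lay low beside Csrp1, with 7 of 9 below 0, a median difference of -0.20, and Cnn1 past the threshold at -0.67 in limma but not with the methods' t-test. The mean log2 signal of this list was 8.39 and 8.34 on the Jun f/f arrays and 8.06 and 8.21 on the Jun delta mu arrays, and its part in the Csrp1 result was not tested.

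The wider Z-disc was read in a list of 41 genes, of which 39 were measured. By brightest probe set 2 of 39 were lower, 0 were higher and 37 did not pass, where 0.786% of all genes were lower and 0.665% higher by the same rule. The median difference was -0.02, against 0.01 over all genes, and 24 of the 39 were below 0. Pdlim1, a PDZ and LIM domain adaptor that binds alpha-actinin, read 10.22 and 10.37 against 9.77 and 9.77, a difference of -0.53. Nrap, a nebulin-related protein that anchors thin filaments at cell junctions, read 11.63 and 11.57 against 11.17 and 11.25, a difference of -0.39. Pdlim1 passed whichever array was left out, whereas Nrap did not pass without Jun f/f replicate 1, at -0.36, or without Jun delta mu replicate 1, at -0.35. Dimmer probe sets passed for Fblim1, a filamin-binding LIM protein, at -0.52, and for Pdlim5, a PDZ and LIM protein, at 0.38, while their brightest ones differed by -0.09 and -0.06. Neither of these dimmer probe sets passed with the methods' t-test. Nrap, Pdlim1 and Fblim1 were already known to be lower on these arrays when the list was drawn up.

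Of 4 proteins picked by name for binding members directly, none was past the threshold, and Ldb3 lay lowest. They are not all the proteins that bind members. Ankrd1, which myopalladin joins, differed by -0.07 at its brightest probe set, and the filamin-binding Fblim1 passed as lower at a dimmer probe set, as given above. Alpha-actinin 2 (Actn2), the crosslinker to which the myotilin family and myozenins attach, read 13.27 and 13.34 against 13.23 and 13.31 and differed by -0.03. Titin (Ttn), which telethonin caps, differed by -0.05, and the calcineurin subunit Ppp3cb, which myozenins tether, by 0.02. Ldb3, a PDZ protein that binds alpha-actinin and myozenins, read 12.69 and 12.74 against 12.44 and 12.54, a difference of -0.22 (95% interval -0.45 to 0.00) that did not pass the threshold. The groups of Ldb3 did not overlap, and those of Actn2, Ttn and Ppp3cb did.

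**Figure D3:**
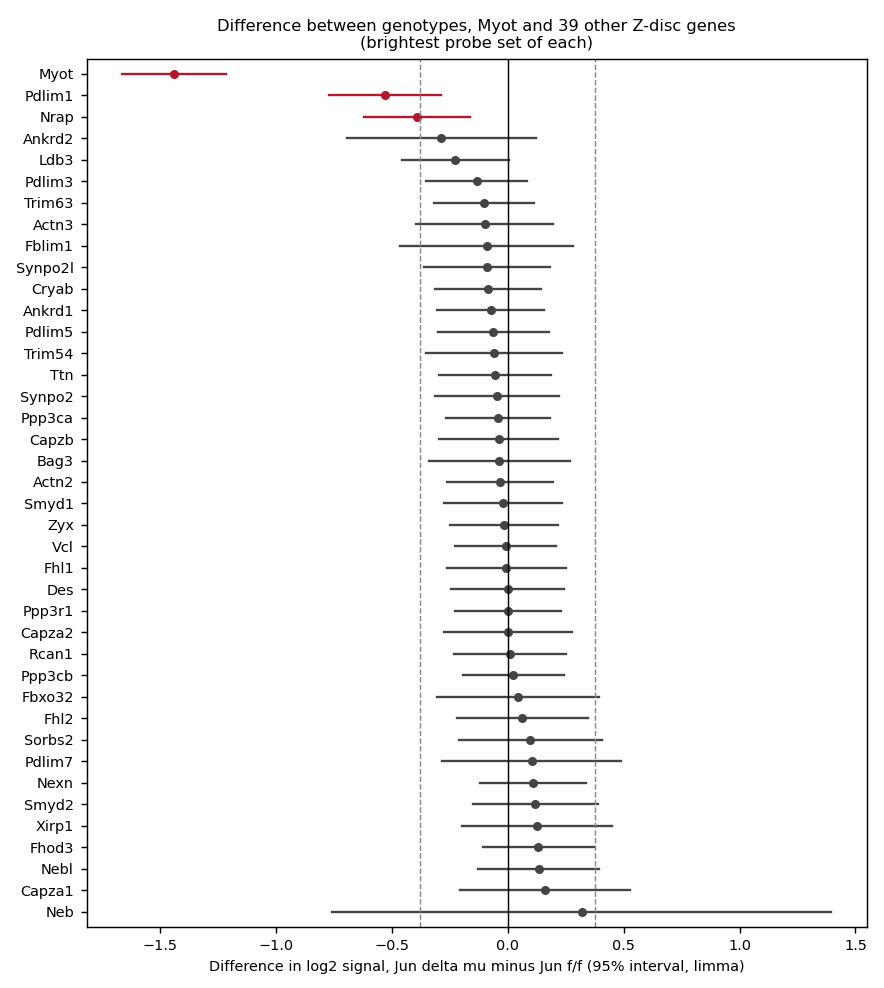
Difference in log2 signal (Jun delta mu minus Jun f/f, points) with 95% intervals from limma (lines) for Myot and, ordered by size, the 39 other measured Z-disc genes by their brightest probe sets. Genes past the threshold are in red and dashed lines mark 1.3-fold. Myot at -1.44 lies apart from the list, which runs from -0.53 for Pdlim1 to 0.32 for Neb.

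Myot is also a gene of skeletal muscle, so skeletal muscle markers were read beside it. Of 20 measured, 2 were lower and 0 higher past the threshold, namely Mybpc2 at -2.30 and Casq1 at -1.52, and the median difference was -0.01. The skeletal myosin heavy chains were dim on every array, with Myh1 at 4.38 to 4.46, Myh2 at 4.98 to 5.15 and Myh4 at 3.11 to 3.35, and none of the 3 passed. The mean log2 signal of the list was 5.27 and 5.29 on the Jun f/f arrays and 5.10 and 5.14 on the Jun delta mu arrays, and its part in the fall of Myot was not tested. Mybpc2 and Casq1 carried this shift in the mean. They were set aside because they had passed as lower, so a smaller fall without them follows from that choice. The mean of the other 18 genes was 5.04 and 5.06 against 5.07 and 5.09. These means lie below the array medians of 5.45 to 5.47, where a fall might not be measurable.

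The genes closest to Myot in pattern were sought among all genes with their brightest probe sets. The measure was the root mean square difference of the log2 values on the 4 arrays, each gene centred on its own mean, so that a small value means a like step between the groups. The 5 closest were Snapc1 (0.14), part of the complex that starts transcription of small nuclear RNA genes, B3galt2 (0.16), a galactosyltransferase, Slitrk4 (0.17), a membrane protein known from neurons, Lgi1 (0.20), a secreted protein of the nervous system, and Casq1 (0.22), the calsequestrin of fast skeletal muscle. Snapc1 read 8.35 and 8.23 against 7.16 and 7.05, and Casq1 6.89 and 7.39 against 5.49 and 5.75. B3galt2 read 4.89 and 4.50 against 3.49 and 3.32 and Slitrk4 5.22 and 5.32 against 4.28 and 3.86, all below the array medians. Lgi1, at 6.47 and 6.23 against 5.28 and 5.26, was below them in the Jun delta mu hearts. Of the other members, the closest probe set was the brighter one of Myoz1 at 0.60, which ranked 1853 of all probe sets, and Mypn and Palld by brightest probe set were at 0.72 and 0.74. With 4 arrays in 2 groups, this measure finds genes with a fall of like size and holds little beyond that.

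**Figure D4:**
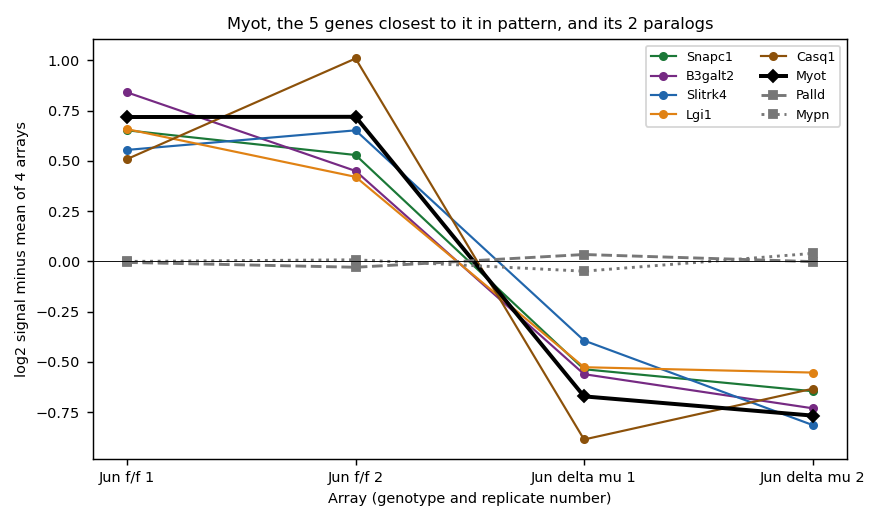
Log2 signal minus the mean of the 4 arrays for Myot, the 5 genes closest to it and, for comparison, its paralogs Palld and Mypn (brightest probe sets). Lines only join the values of 1 gene. The 5 genes step down with Myot from Jun f/f to Jun delta mu hearts, while Palld and Mypn stay within 0.05 of their own means.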

How the data were processed

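Hearts of 2 Jun f/f and 2 Jun delta mu mice were profiled on Affymetrix GeneChip Mouse Genome arrays. The deposited values are log2 signals, 1 per probe set, which the authors obtained with RMA from the R package oligo according to the submitters' processing notes, without stated versions, after scanning with Affymetrix AGCC software. RMA corrects background and normalizes between arrays, and it compresses differences of dim probe sets. Of 45101 probe sets, 64 AFFX controls were left out and 45037 tested without further filter. The array annotation names 1 gene for 34945 of them, several for 932 and none for 9160, and no probe set with several names holds a member. Fits were made per probe set in limma 3.58.1 under R 4.3.3 (genotype only, two-sided, Benjamini-Hochberg adjustment over all probe sets), with 2 residual degrees of freedom. The procedure was tested on simulated data. The number of arrays limits the precision. Differences are Jun delta mu minus Jun f/f. The brightest probe set has the highest mean over the arrays.

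Named genes are the members, Z-disc genes past the threshold, Actn2, Ldb3, Ttn and Ppp3cb as partners, paralogs outside the members, the 5 genes most like Myot, Jun, and markers that move with a result. Fblim1 and Pdlim5 were added after their values were seen. Members and lists were chosen with earlier results of these data known. Replicate numbers were not taken as pairs, since only 2 are shared and the deviations of same-numbered arrays correlated at 0.03 across probe sets. Marker lists of fibroblasts (3 of 10 higher, 0 lower), atrial muscle (0 of 7) and endothelium (0 of 6) were also counted. By the same rule 0.665% of all genes were higher and 0.786% lower. The 3 were Postn, Mfap5 and Pi16, named after their values were seen, and of them only Pi16 passed with the methods' t-test. Alternatives were the methods' t-test, replicate block, a trended robust prior, removal of the dimmest 40% of probe sets, quantile normalization and median centring. Further ones were linear means, the median signal of a gene's probe sets on each array and leaving out each array. Figures were drawn with matplotlib 3.10.9.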

Additional observations from a re-analysis of the deposited data

How the results depend on the processing

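Myot kept its direction and stayed past the threshold under all 11 alternatives run, with differences from -1.49 to -1.39, and each other member's brightest probe set stayed short of the threshold under all of its alternatives. With replicate number as a block the difference of Myot was -1.44 (limma, unadjusted p = 0.000178), and no call of a member changed. The ratio of Myot again changed against 8 of the 8 other members. This count follows from the values of Myot itself, since the main fit made the same call against 99.9% of all probe sets. The counts moved only with single arrays left out. Member probe sets lower past the threshold numbered 1 to 2 and those higher 0 to 1, the added one being the unstable Palld probe set, lower when Jun f/f replicate 2 was left out and higher when replicate 1 was. Other Z-disc genes numbered 1 to 3 lower and 0 to 1 higher. Without Jun f/f replicate 2, Ankrd2 joined at -0.51, and without Jun delta mu replicate 2, Neb joined as higher at 0.98, while Nrap was lost when replicate 1 of either genotype was left out. Small differences changed sign. With single arrays left out Flnc ran from -0.091 to 0.25, Tcap from -0.18 to 0.0041 and Mypn from -0.053 to 0.036. Taking on each array the median signal of a gene's probe sets put Palld at -0.14 and Flnc at -0.030. For Palld this median takes in the unstable probe set, which was high on Jun f/f replicate 1. The causes were not tested. Where 1 array remained in a genotype, its spread was taken from the other genotype.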
